A study of Mus musculus with 16 samples.

Results

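The very long genes described here are the nuclear gene intervals of an ATAC-seq table whose annotated span is at least 300 kb. Names of unnamed gene models and of several channel, receptor and guidance families, and a few single genes, were left out, which kept 508 of the 577 rows of that length and 508 of the 37255 rows in all. Span was the only measurement used to choose them. They were 1.36% of nuclear rows but 22.1% of the summed span. Of the 508, 497 were protein-coding and 11 were long noncoding RNA genes, the median span was 440 kb, and 52 spanned at least 1 Mb. All 508 passed the filter on low counts, with no library under 27 reads for any of them.

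ATAC-seq uses a transposase to insert sequencing adapters into accessible DNA. Here it was run on retinal ganglion cells, the neurons whose axons form the optic nerve, isolated by cell sorting from the eyes of female mice. Experimental autoimmune encephalomyelitis (EAE), an induced autoimmune demyelinating disease, was started at 7 to 8 weeks of age, and libraries were made at the presymptomatic stage (n = 4), at onset (n = 3) and at peak (n = 4), beside naive controls (n = 5). The labels name no strain, allele or inducing agent, and leave unsaid if each library is from its own animal. All p-values below therefore refer to library-to-library spread, some of which may be technical.

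Very long genes owe their length to introns, since their messenger RNAs are of ordinary size. Many encode neuronal cell adhesion molecules, synaptic scaffolds, ion channels and signalling proteins, and their transcription takes many hours and depends on topoisomerases in neurons. Several of the longest lie in common fragile sites, where replication stress breaks chromosomes.

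The deposited count for a gene took in its body without the outer 1000 bp at each end, so a promoter at the edge of the row was not counted. Promoters farther inside, of other starts or of genes lying within, were not removed from the counts. Read density below is the count per kb of counted interval per M (1e6) nuclear reads in intervals, written as a plain number. To show the start regions that the counts leave out, the 250 bases before the RefSeq start of 4 members are printed 5′ to 3′ (GRCm38.p6), with the dinucleotide CG in capitals. All 4 were taken from members whose RefSeq start lay within 1 bp of the edge of the deposited row. Tenm4 (chr7:96170994-96171243, plus strand) stands among the densest members, Dock3 (chr9:107231910-107232159, minus strand) among the least dense, and Col4a6 (chrX:141474077-141474326, minus strand) and Mid1 (chrX:169684949-169685198, plus strand) are the X-linked members that varied and did not vary between libraries.
Tenm4: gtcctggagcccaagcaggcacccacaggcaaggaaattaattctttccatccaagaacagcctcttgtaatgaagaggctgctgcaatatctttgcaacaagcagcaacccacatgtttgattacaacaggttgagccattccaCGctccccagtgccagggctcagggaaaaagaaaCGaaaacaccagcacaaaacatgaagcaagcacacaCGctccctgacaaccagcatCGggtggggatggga
Dock3: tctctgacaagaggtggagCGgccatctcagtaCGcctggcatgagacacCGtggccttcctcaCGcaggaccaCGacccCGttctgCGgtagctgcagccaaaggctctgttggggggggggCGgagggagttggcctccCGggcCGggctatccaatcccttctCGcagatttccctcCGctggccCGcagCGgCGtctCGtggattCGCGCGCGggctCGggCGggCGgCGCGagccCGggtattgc
Col4a6: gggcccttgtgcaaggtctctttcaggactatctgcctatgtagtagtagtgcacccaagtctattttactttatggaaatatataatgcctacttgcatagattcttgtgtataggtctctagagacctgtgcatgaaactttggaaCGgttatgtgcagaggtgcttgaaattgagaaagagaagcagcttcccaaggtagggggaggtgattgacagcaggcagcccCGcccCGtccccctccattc
Mid1: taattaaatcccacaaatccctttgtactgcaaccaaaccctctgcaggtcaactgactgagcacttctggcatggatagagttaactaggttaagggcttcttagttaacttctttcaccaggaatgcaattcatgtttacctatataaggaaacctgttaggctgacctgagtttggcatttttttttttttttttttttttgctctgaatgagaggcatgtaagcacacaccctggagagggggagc
These windows held 4, 26, 3 and 0 CG dinucleotides, in that order. A RefSeq window was matched for 385 of the 508 members, and for 119 of these the RefSeq start lay within 1 bp of the deposited edge. For the others the window is not shown to lie outside the counted interval. Of 23849 matched rows of any length, 13005 had a start within 1 bp of the edge. The median over the 385 members was 13 CG, against 6 over the 23849 rows and 14.5 over genes of 100 to 300 kb. At least 10 CG occurred in 60.3% of members and 40.3% of all matched rows. The 232 members with such a window had a median naive density of 0.865 and the 153 others 0.841, which is a small difference beside the interquartile range of 0.700 to 0.994 among the former. Overlap of CG with other motifs was not searched.

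In naive libraries the very long genes took 24.7% ± 2.06 (SD, n = 5) of nuclear reads in intervals. Their median naive density was 0.848, above that of all nuclear rows (0.617), and it was 0.778 for genes of 100 to 300 kb, 0.645 for 30 to 100 kb, 0.586 for 10 to 30 kb and 0.562 for 2 to 10 kb. Genes under 2 kb did not follow this order, with 0.641. Their interval length in the deposited RPKM values is 2000 bp less the span, so it is no trimmed gene body. The spread narrowed with span as well. The ratio of the 95th to the 5th percentile was 2.34 among the very long genes, 3.88 at 100 to 300 kb and 21.9 at 2 to 10 kb, where few reads per gene also widen it. Just inside the length limit, Jazf1, Ranbp17 and Dync1i1 had 0.875, 0.564 and 1.01. Just outside it, Akap13, Atp2b2 and Slc44a5 had 0.923, 1.28 and 0.809.

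**Figure D1:**
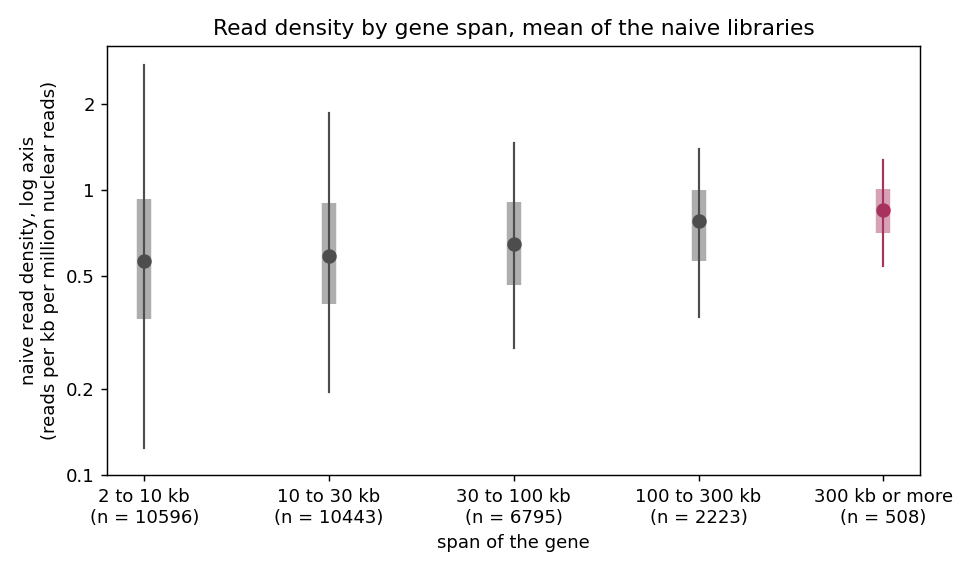
Naive read density by gene span, on a log axis; points are medians over genes, thick bars run from the 25th to the 75th percentile and thin bars from the 5th to the 95th. The median climbs from 0.562 at 2 to 10 kb to 0.848 at 300 kb or more, while the bars shorten; genes under 2 kb, with a median of 0.641, are not drawn.

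The densest member was Nav2, a neuron navigator that guides growing axons (chr7:48959069-49610088 as deposited). Its density was 1.59, 2.20, 1.90, 1.57 and 1.92 in naive replicates 1 to 5, 2.17, 2.08, 2.21 and 1.64 in presymptomatic 1 to 4, 2.12, 2.29 and 1.43 in onset 1 to 3, and 1.30, 1.82, 1.82 and 1.84 in peak 1 to 4. Every library of Nav2 lay above the naive median of the very long genes, and the stages overlapped. After it came Cmss1 at 1.61 ± 0.667, Zfp536, a zinc finger repressor of neuronal differentiation, at 1.57 ± 0.246, Pdzd2 at 1.43 ± 0.307, Bach2, a lymphocyte transcription repressor, at 1.42 ± 0.349, and Zcchc16 at 1.41 ± 1.08 (SD, n = 5 each). The sixth of these is X-linked, and its SD was far above those of the autosomal ones.

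The least dense members were 4930557B15Rik on chromosome X (0.105 ± 0.0707), the Rac activator Dock3 (0.285 ± 0.0995), the postsynaptic scaffold Tanc2 (0.347 ± 0.146), Gphn (0.354 ± 0.0833), Scaper (0.354 ± 0.0671) and Hydin, a protein of motile cilia (0.397 ± 0.106). Gphn encodes gephyrin, the scaffold of inhibitory synapses. Reads that align to several places can be lost in counting, and how they were handled is not given in the sources used here, so the part of repeats in these low values was not tested.

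The members were grouped by known role in 11 lists, which held 245 of the 508. Transcription and chromatin regulators had the highest median density, 0.919, and 25 of their 39 members lay above the median of all very long genes. The list ran from Zfp536 at the top to Auts2, a neurodevelopmental regulator, at 0.588. Genes of the dystrophin complex and the extracellular matrix followed at 0.915, with 22 of 28 above. Dmd, which encodes dystrophin, had 1.18 ± 0.720, the heparan sulfate carrier Gpc3 1.25 ± 0.637 and Spock1 0.634 at the low end.

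Ion channels, transmitter receptors and their subunits had a median of 0.901, with 19 of 25 above the median of all members. Trpc5, a cation channel, had 1.41 ± 0.939 and Itpr1, the calcium release channel of the endoplasmic reticulum, 1.28. Nalcn, the sodium leak channel, had only 0.531. Kinases, phosphodiesterases and GTPase regulators had a median of 0.862, between Ntrk3, the neurotrophin-3 receptor, at 1.33 and Dock3. This list also held some genes of other kinds, among them Galntl6, Galnt13, Reln and Syne1.

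Synaptic and neural adhesion genes, the joint largest list with 45 members, had a median of 0.796, and 17 of the 45 were above the median of all members. Within it the teneurin Tenm4 had 1.38 and Kirrel3 1.27, and the immunoglobulin adhesion protein Sdk1 0.570. Cadherins, protocadherins and catenins had 0.842, with Fat3 at 1.03 and Cdh12 at 0.630. Scaffolds and release proteins had 0.824, from Dlgap2 at 1.27 down to Gphn. The scaffold list also held genes of other kinds, among them Nrg1, Nrg3, Erbb4, Sorcs1, Sorcs2 and Sorcs3. Fam19a1 and Fam19a2 were likewise counted in the adhesion list.

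The smaller lists were those of leukocyte genes (0.886, 10 members), fragile sites (0.802, 24), RNA-binding proteins (0.782, 6) and the Csmd and Lrp1b giants (0.782, 4). The 263 members in no list had a median of 0.813. In every list of more than 6 members the densities of single genes spread more widely than the medians of the 11 lists. The leukocyte gene Bach2 was denser than all but 4 of the 508 members. Short marker genes, measured the same way, had naive medians of 1.13 for ganglion cells, 1.18 for rods, 1.07 for Müller glia and astrocytes and 0.429 for microglia and macrophages. Rod markers were thus no less dense than those of the sorted cell type.

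**Figure D2:**
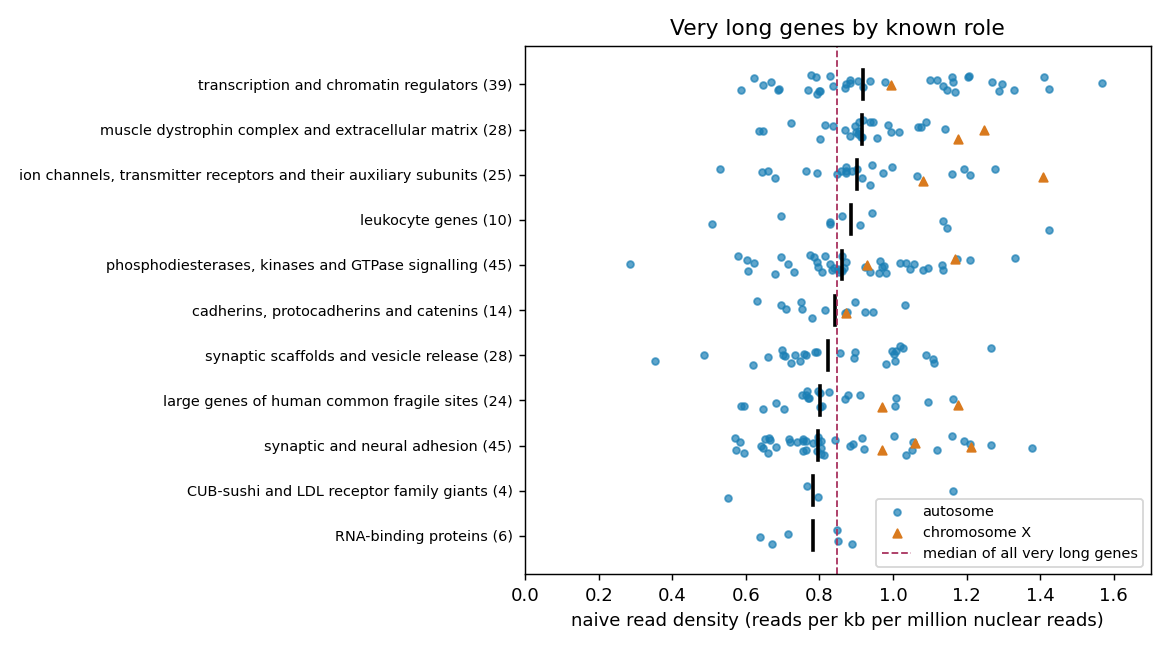
Naive read density of the very long genes in 11 lists by known role, with the number of members in parentheses; each point is a gene, triangles are X-linked, black bars are list medians and the dashed line is the median of all very long genes, 0.848. List medians run from 0.782 to 0.919, and genes within a list spread more widely.

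Genes of common fragile sites included the tumour suppressor genes Wwox (0.807) and Fhit (0.795), Park2, which encodes the ubiquitin ligase parkin (0.648), Immp2l (0.878) and Dab1, the adaptor of reelin signalling (1.09). Only 9 of the 24 lay above the median of all members, and Dmd and Csmd1, a complement regulator of neurons, headed the list with 1.18 and 1.16. Among RNA-binding proteins, the splicing regulators Rbfox3, known as NeuN, and Rbfox1 had 0.715 and 0.671.

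Other genes lie within many of these bodies. Of the 508 members, 334 held at least 1 whole other row and these rows numbered 699 in sum, while 148 overlapped no other row. The latter had a median naive density of 0.868, against 0.848 for all members.

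The 5 longest members lay within the range of the rest. Ptprd, a presynaptic receptor phosphatase of 2271 kb, had 0.751, 0.793, 0.961, 0.766 and 0.755 in the naive libraries. Cntnap2, a neurexin relative, had 0.594 ± 0.0755, the lipoprotein receptor relative Lrp1b 0.766 ± 0.214 and Macrod2, an ADP-ribose hydrolase, 0.769 ± 0.0556. Dmd, the longest at 2390 kb, was the only X-linked one and had the highest naive mean of these. That mean rests on naive 3 and naive 4, at 2.15 and 1.72. In naive 2 and naive 5 Dmd had 0.519 and 0.614, below Ptprd.

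Gene by gene, the very long genes had the lowest median spread between libraries of any span class. Their median biological coefficient of variation (the edgeR estimate of spread beyond counting error) was 0.232, against 0.247 at 100 to 300 kb and 0.377 over all 29902 tested rows. As a class they were less steady than genes of 100 to 300 kb. Their share of naive nuclear reads had an SD of 2.06 percentage points, against 0.526. Their median density ran from 0.689 (onset 3) to 0.871 (presymptomatic 4), against 0.713 (naive 2) to 0.799 (peak 1). Among single members, the smallest ratio of the highest to the lowest of the 16 libraries was 1.24, for Large, a glycosyltransferase that modifies dystroglycan. Its density stayed between 0.725 (naive 2) and 0.898 (naive 1). Large was chosen for description after its values were seen, as were Wwox, Fhit, Park2, Immp2l, Dab1 and Rbfox1 above and Mid1, Cask, Nhs, March1, Ulk4, Csmd2 and Msi2 below.

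The 25 members on chromosome X were the exception. Their median ratio of highest to lowest library was 3.82, against 1.90 for the 483 autosomal members, and 19 of the 50 most variable members were X-linked. The median density of the X-linked members was 0.846, 0.519, 1.85, 1.54 and 0.614 in naive 1 to 5, 0.766, 1.08, 1.04 and 0.921 in presymptomatic 1 to 4, 0.590, 0.813 and 0.496 in onset 1 to 3, and 0.690, 0.832, 1.61 and 0.677 in peak 1 to 4. Naive 3, naive 4 and peak 3 stood above every other library. All libraries are labelled female, and single-copy Y genes had at most 3.83 reads per M nuclear reads. The median of the autosomal members ranged only from 0.697 (onset 3) to 0.863 (presymptomatic 4).

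Dmd showed the pattern in single genes. Its density was 0.883, 0.519, 2.15, 1.72 and 0.614 in the naive libraries, 0.756, 1.21, 1.16 and 0.899 in the presymptomatic ones, 0.499, 0.878 and 0.496 at onset, and 0.666, 0.866, 1.90 and 0.616 at peak. The 3 high libraries were again naive 3, naive 4 and peak 3. For 20 of the 25 X-linked members all 3 lay above each of the other 13 libraries. The 3 libraries were named from the X-linked median, so this count partly restates that choice. It was not made over all X rows or all tested rows, so it is not shown to be particular to very long genes.

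The neighbours Trpc5 and Zcchc16, whose intervals nearly touch, reached 2.69 and 3.01 in naive 3, against 0.597 and 0.511 in naive 2. Mid1, a ubiquitin ligase gene at the pseudoautosomal boundary of laboratory mice, did not follow. It stood at 0.862, 0.882, 0.845, 0.637 and 0.875 in the naive libraries and between 0.636 and 0.958 in all 16. Cask, a synaptic scaffold, and Nhs varied little too, by 1.48 and 1.85 times.

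Some autosomal members shared the pattern. All 3 high libraries lay above each of the other 13 for 75 of 483 autosomal members and below each of them for 56. The same counts were not made over all tested rows, so they are not shown to be particular to very long genes. March1, a ubiquitin ligase that acts on antigen-presenting molecules, had 0.935, 0.562, 2.57, 1.98 and 0.604 in naive 1 to 5 and 0.784, 0.909, 1.75 and 0.702 in peak 1 to 4. Gse1, a chromatin-associated protein, ran the other way, with 1.27, 1.52, 0.627, 0.808 and 1.38 in the naive libraries and 1.19, 1.25, 0.651 and 1.30 at peak. The autosomal member with the widest range was Ulk4, a kinase-like gene, from 0.225 in peak 3 to 1.09 in peak 1.

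The same 3 libraries had the largest shares of reads in olfactory and vomeronasal receptor genes, which are silent in retina. Those shares were 0.580%, 0.511% and 0.508% of nuclear reads, against 0.201% to 0.405% in the other libraries. The very long genes took 27.8%, 25.9% and 26.3% of nuclear reads in them and 20.04% to 25.4% elsewhere. Their pooled density was 0.954, 1.01 and 1.03 times that of the receptor genes there, and 1.22 to 2.29 times in the others. The X to autosome ratio among genes of 30 to 300 kb ran from 0.794 to 2.53, so X-linked genes of ordinary length varied in the same way. The part of the receptor share in the values above was not tested.

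**Figure D3:**
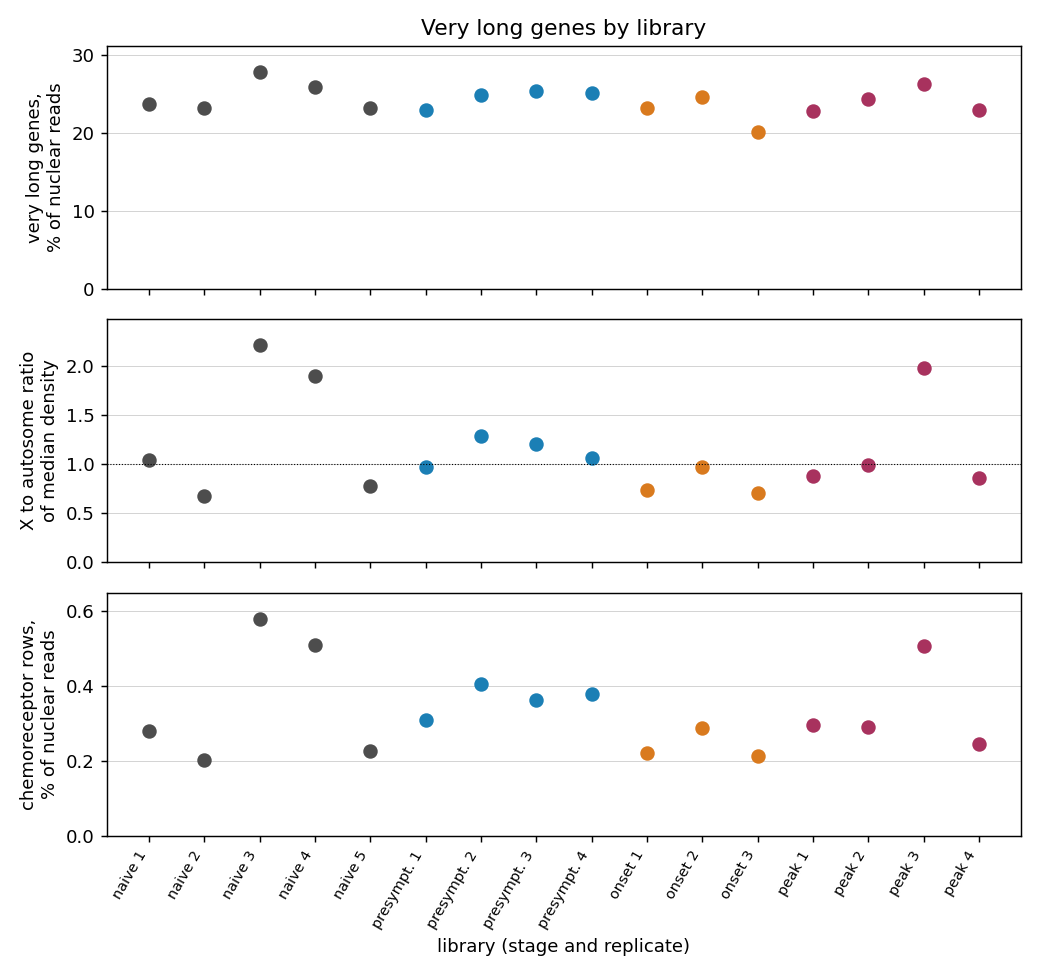
Share of nuclear reads in the very long genes (top), ratio of the median density of the 25 X-linked to the 483 autosomal members (middle) and share in chemoreceptor genes (bottom), one point per library, coloured by stage. Naive 3, naive 4 and peak 3 are the highest points in every panel.

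**Figure D4:**
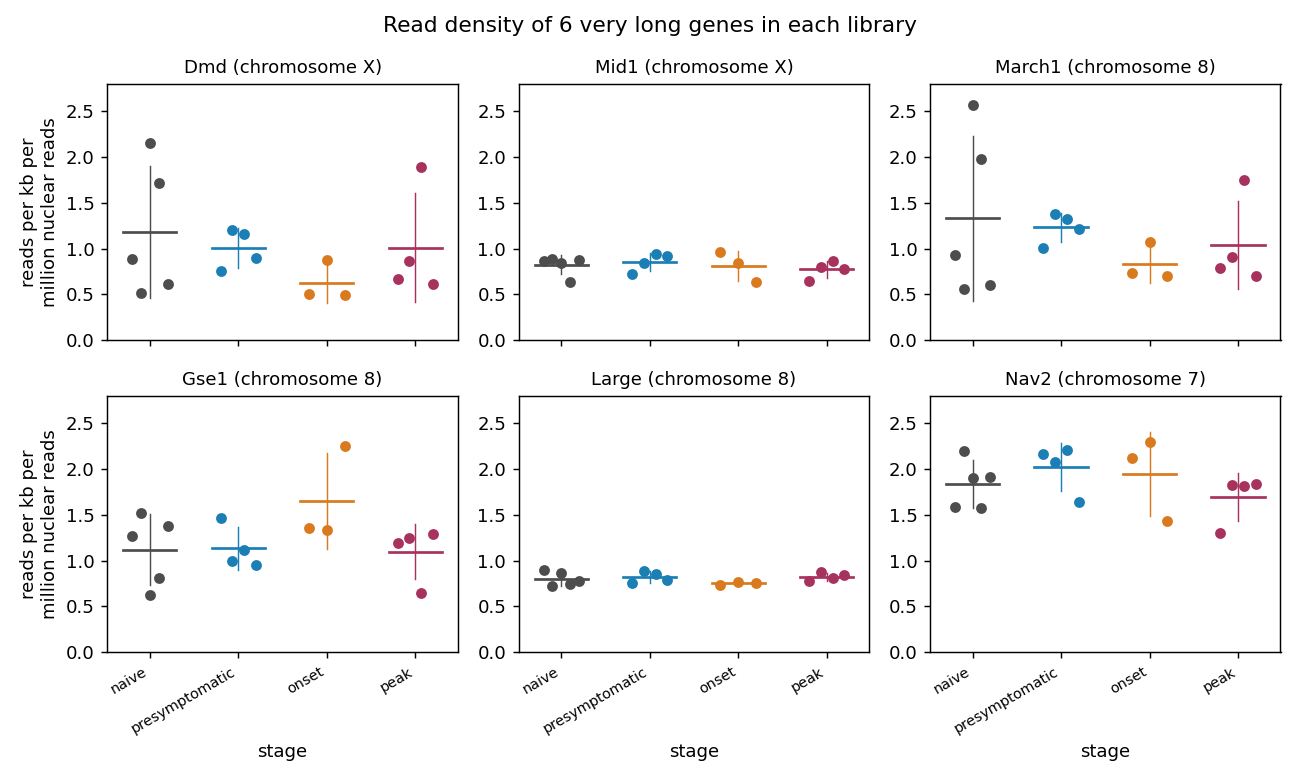
Read density of 6 very long genes by stage; each point is a library, horizontal bars are means and vertical lines are ± 1 SD. Dmd and March1 each have 3 high libraries, 2 of them naive and 1 at peak, Gse1 is low in those libraries, and Mid1 and Large stay level.

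No very long gene passed the threshold at any stage. In edgeR's quasi-likelihood test, with Benjamini-Hochberg adjustment over 29902 rows and a threshold of 0.05, 0 of 508 members were called presymptomatic versus naive, and so were 0 at onset and 0 at peak. The share of all tested rows called was 0% in each of these comparisons. DESeq2 also called 0 members. The median standard error of a member's log2 fold change was 0.21 presymptomatic, 0.22 at onset and 0.21 at peak, which limits what these libraries could show.

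At the presymptomatic stage the median log2 fold change of the members was −0.06, the same as over all tested rows, and 382 of 508 had values below 0. With libraries scaled by their nuclear reads instead, the median was −0.01 and 271 values were below 0. At an unadjusted p under 0.05 there were 0 members higher and 2 lower, against 0.351% and 0.813% of all tested rows. These were Myo3a, a motor of the stereocilia, with −0.63 ± 0.30 (SE), and Vps13b, a lipid transfer protein of the Golgi, with −0.41 ± 0.19. Myo3a had 1.06, 0.565, 0.888, 1.34 and 0.868 in the naive libraries and 0.480, 0.530, 0.727 and 0.780 in the presymptomatic ones, so the groups overlapped.

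Slc2a13, a myo-inositol transporter, was the one member whose presymptomatic libraries all lay below every naive one in TMM-scaled counts per M, against 0.482% of tested rows, and none lay wholly above (0.365% of tested rows). Its density was 0.737, 0.681, 0.730, 0.607 and 0.683 in naive and 0.609, 0.526, 0.582 and 0.579 in presymptomatic libraries. The log2 fold change was −0.32 ± 0.19. On the scale of nuclear reads the lowest naive and the highest presymptomatic library overlapped.

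By role, presymptomatic medians ran from −0.11 for fragile site genes, with 21 of 24 values below 0, to −0.01 for the 4 Csmd and Lrp1b giants. Scaffolds and release proteins had −0.10, with 25 of 28 below 0. Scaling by nuclear reads gave fragile site genes −0.05, with 14 of 24 below 0, and scaffolds −0.04, with 23 of 28. Within these lists the active zone protein Erc2 had −0.27 ± 0.18 and Dlg2, a postsynaptic scaffold, −0.27. The splicing regulator Rbfox3 had −0.29, and the transcription factor Tcf4 −0.32 ± 0.22. None of these reached an unadjusted p under 0.05. Leaving out naive 3, naive 4 and peak 3, scaffolds had −0.14 and fragile site genes 0.00, and the X-linked members had 0.57. A rise of the X-linked value was built in, since naive 3 and naive 4 had the highest X-linked densities of the naive libraries. In that setting 67 members were higher at an unadjusted p under 0.05, against 4.92% of all tested rows, and 13 were lower, against 2.82%. The higher ones included 16 of the 25 on X, where 20.6% of all X rows and 36.3% of X rows of 30 to 300 kb were also higher. Of the 483 autosomal members 51 were higher, against 4.27% of all autosomal rows, and 13 were lower, against 2.92%. Beside the presymptomatic values, the median log2 fold change was −0.25 over rod markers and −0.19 over Müller glia and astrocyte markers, and their part was not tested.

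At onset the median over the members was −0.13, against −0.01 over all tested rows, and 350 of 508 values were below 0. Scaling by nuclear reads gave −0.05, with 303 below 0. At an unadjusted p under 0.05, 0 members were higher (1.57% of all tested rows) and 39 lower (3.38%), or 7.68% of the members. Of the 39, 18 were X-linked, out of 25, and 21 were autosomal, or 4.35% of the autosomal members. X-linked genes of other lengths had many lower values too, in 24.3% of all X rows and 39.4% of X rows of 30 to 300 kb, against 2.53% of all autosomal rows.

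The X-linked members had a median of −0.89, all tested X rows −0.67 and the autosomal members −0.11. Pola1, the catalytic subunit of DNA polymerase alpha, had the smallest p of any member (0.00386 unadjusted; adjusted p = 0.972 in edgeR). Its density was 0.748, 0.415, 1.86, 1.54 and 0.571 in the naive libraries and 0.439, 0.571 and 0.453 at onset, and its log2 fold change was −1.18 ± 0.37. The onset libraries lay at the level of naive 2 and naive 5. The next were Pcdh11x, an X-linked protocadherin (−1.10 ± 0.40), Dach2, a nuclear cofactor of eye and muscle development (−0.99 ± 0.36), Arhgap6 (−0.89 ± 0.33) and Eda, the ligand ectodysplasin (−1.11 ± 0.42).

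These values turn on the libraries named above. Naive 3 and naive 4 had the highest X-linked densities of the naive libraries, so a rise of the X-linked median without them was built in. Without naive 3, naive 4 and peak 3, the onset median of the X-linked members was −0.09, and with the receptor share as a covariate it was −0.12. The receptor share was highest in those same libraries, so the covariate was no independent check. Without those libraries 2 members were lower at an unadjusted p under 0.05 (0.876% of all tested rows), and with the covariate also 2 (0.916%). Without naive 3 alone the X median was −0.52. Without onset 3, the library with the lowest median density of very long genes, it was −0.70, and the median of all members was −0.02, again with 2 lower (2.63%). Over all nuclear rows onset 3 had the highest median density of the 16 libraries, 0.717. In it the rise of density with span was absent, with 0.723 at 2 to 10 kb and 0.689 for the very long genes.

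By role, onset medians were −0.35 for the dystrophin and matrix list (26 of 28 below 0), −0.39 for the 4 Csmd and Lrp1b giants, −0.26 for cadherins, −0.22 for ion channels and −0.18 for synaptic adhesion genes (32 of 45). Scaffolds and release proteins had 0.00, with 14 of 28 below 0, and leukocyte genes −0.02. No member of any list passed the adjusted threshold. Without onset 3 the medians were −0.18, −0.20, −0.17, −0.04 and −0.02 for the first 5 of these lists. Without the 3 libraries of highest receptor share they were −0.09, −0.05, −0.06, −0.04 and −0.09, so the order of the lists did not hold. Scaffolds then had −0.09, with 22 of 28 below 0, and leukocyte genes −0.08, with 8 of 10. Without onset 3 they had 0.06 and 0.13.

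Single members followed the library pattern in several lists. Mecom, a transcription factor of blood stem cells, had −0.86 ± 0.36 at onset, the adhesion protein Cntn3 −0.85 ± 0.35 and Nkain2, a partner of the sodium pump, −0.70. Cntn3 had 0.878, 0.570, 1.85, 1.78 and 0.725 in the naive libraries and 0.625, 0.861 and 0.568 at onset. Naive 3 and naive 4 lay far above its onset libraries, and the other 3 naive libraries near them. Erbb4, the neuregulin receptor, had −0.67 ± 0.34 and the giant Csmd3 −0.59, while Csmd2 of the same family had −0.07 and, scaled by nuclear reads, 0.02.

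Among autosomal members the onset median went from −0.07 at 300 to 400 kb through −0.11 and −0.17 to −0.24 at 1 Mb or more, where 41 of 48 values were below 0. Genes of 1 Mb or more had a median density of 0.589 in onset 3 and 0.680 to 0.777 in the other onset libraries, against 0.669 to 0.961 in naive ones. The highest naive value was that of naive 3. Scaled by nuclear reads, the medians of the 4 span classes were 0.004, −0.033, −0.100 and −0.165. Without onset 3 they were 0.022, −0.015, −0.024 and −0.051, a smaller fall in the same order. Without the 3 libraries of highest receptor share they were −0.04, −0.07, −0.04 and −0.08, and the gradient did not hold. That setting drops naive 3 and naive 4, the highest naive libraries at 1 Mb or more (0.961 and 0.805). A flatter gradient was thus partly built in.

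Other lists had medians nearer to 0 at onset. RNA-binding proteins had a median of −0.04, kinases, phosphodiesterases and GTPase regulators −0.07, transcription and chromatin regulators −0.07 and fragile site genes −0.17. The stem cell regulator Msi2 had 0.28 and Khdrbs2 −0.39 within the same list.

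On the higher side at onset, no member reached an unadjusted p under 0.05. Gse1 had 0.47 ± 0.25, Agap1, an Arf GTPase regulator, 0.37 ± 0.22 and the kinase Prkce 0.32 ± 0.19. The density of Gse1 at onset was 1.36, 1.33 and 2.25, and the last of these, onset 3, was its highest library. Atxn1, the ataxin-1 gene, was the one member with every onset library above every naive one in TMM-scaled counts per M (1.6% of tested rows). Its density was 0.785, 0.854, 0.496, 0.527 and 0.840 in naive and 0.982, 0.833 and 1.00 at onset. Cdh13, an anchored cadherin, and Esrrg, an orphan nuclear receptor, were the 2 members with every onset library below every naive one (0.936% of tested rows), with log2 fold changes of −0.36 ± 0.19 and −0.31 ± 0.20. On the scale of nuclear reads these 3 genes overlapped between the groups. Beside these values, the median density of rod markers was 1.37, 1.60 and 3.69 in onset 1 to 3 and 0.887 to 1.80 in the naive libraries, and mitochondrial reads were 8.36% of reads in intervals in onset 3 and 34.4% to 64.7% in all others. Their part in the onset values was not tested.

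**Figure D5:**
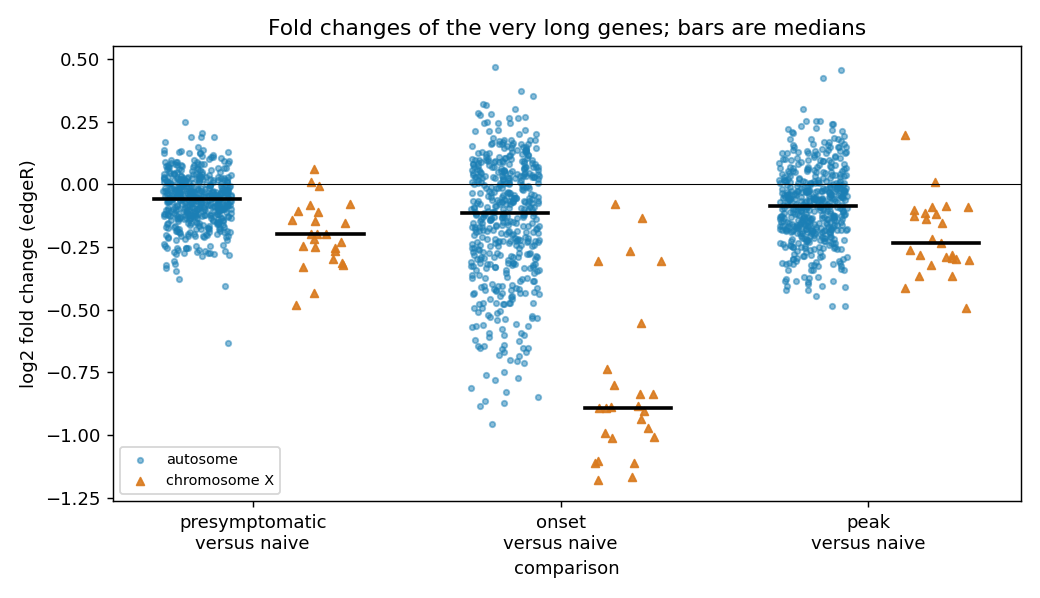
Log2 fold change versus naive of the 483 autosomal (circles) and 25 X-linked (triangles) very long genes at each stage, from edgeR; bars are medians and no gene passed the adjusted threshold. The X-linked median is −0.20 presymptomatic, −0.89 at onset and −0.23 at peak. Leaving out naive 3, naive 4 and peak 3, the libraries of highest X-linked density, makes it 0.57, −0.09 and 0.11.

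At peak the median over the members was −0.09, against −0.03 over all tested rows, with 380 of 508 values below 0. Scaling by nuclear reads gave −0.02 and 277 below 0. At an unadjusted p under 0.05, 2 members were higher (1.8% of all tested rows) and 0 lower (1.81%). These were Mad1l1, a spindle checkpoint protein, with 0.45 ± 0.21, and Hydin, with 0.42 ± 0.21. Mad1l1 had 0.816, 0.556, 0.314, 0.503 and 0.683 in naive libraries and 0.893, 0.791, 0.676 and 0.914 at peak, and only peak 3 and 2 overlapped the naive range.

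Ksr2, a scaffold of the MAP kinase pathway, was the one member with every peak library above every naive one (0.502% of tested rows), and none lay wholly below (0.475%). Its density was 0.532, 0.473, 0.360, 0.440 and 0.465 in naive and 0.566, 0.615, 0.529 and 0.624 at peak, and its log2 fold change was 0.30 ± 0.18. Peak 3 and naive 1 crossed on the scale of nuclear reads. On the lower side, Bach2 had −0.38 ± 0.19, the proteoglycan Spock3 −0.42 ± 0.22, the receptor phosphatase Ptprk −0.40 ± 0.22 and Ptprd −0.32 ± 0.20. Synaptic adhesion genes had a median of −0.13 with 37 of 45 below 0, and leaving out naive 3, naive 4 and peak 3 gave −0.03 with 28 of 45. Marker lists of cell types were described at peak too, with no test. The median density of the 10 Müller glia and astrocyte markers was 0.650 to 0.899 in the peak libraries and 0.904 to 1.16 in the naive ones. These ranges nearly met, at peak 2 and naive 3, and the median log2 fold change was −0.42. Ganglion cell markers had a median of 0.25, with 0.953 to 2.11 at peak and 0.743 to 1.14 in naive libraries. Microglia and macrophage markers had −0.21 and rod markers −0.07. The part of these marker lists in the peak values of the very long genes was not tested.

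Between disease stages 0 of 508 members passed the adjusted threshold in edgeR, and 0% of all tested rows did. At an unadjusted p under 0.05 there were 5 members in onset versus presymptomatic (4.13% of all tested rows), 9 in peak versus onset (6.65%) and 5 in peak versus presymptomatic (3.41%). The members' medians were −0.07, 0.08 and −0.03. X-linked medians were −0.68, 0.68 and −0.02. In the F test over the 3 stages against naive, Pola1 alone had an unadjusted p under 0.05, against 3.16% of all tested rows, and the adjusted threshold called 0%.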

How the data were processed

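Read counts per gene interval, with no scaling, and RPKM values were deposited by the authors for 16 libraries. HISAT2, HTSeq and cutadapt are listed in the submitters' processing notes. The build is not given in the sources used here, and coordinates are printed as deposited. RPKM values as deposited by the authors served only to find the interval lengths (the span less 2000 bp) and the totals. Nuclear reads in intervals ranged from 1.58 to 15.1 M per library. All per-sample columns were mapped by name.

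Counts were filtered with filterByExpr (minimum count 10, minimum total 15), scaled by TMM and fitted over the 4 groups with edgeR 4.0.16 (quasi-likelihood, R 4.3.3). limma 3.58.1 and DESeq2 1.42.0 were alternatives. The fit was tested on simulated data. Density used Python 3.11.15.

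The members and lists were chosen with earlier results of these data known. Nav1, Nav2 and Nav3 were taken out of the matrix list as misplaced after values had been seen, and a list was left out because an item in it is not reported here. Genes were named by rule: extremes of density and span, the smallest p per comparison and list, X-linked extremes and the length limit.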

Additional observations from a re-analysis of the deposited data

Results flagged for a closer look

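Dixon's ratio was computed in 189 groups of 4 or 5 libraries, and in 9 of them 1 library stood apart from the rest of its group. Chance alone gives about 1 in 20 groups, or 9.45 of 189, so the number is no more than chance gives. The 9 values came from 4 libraries, 6 of them from peak 3, so they are not independent of each other. The median density of the X-linked members was 1.61 in peak 3 and 0.677 to 0.832 in the other peak libraries, and the X to autosome ratio was 1.98 against 0.863 to 0.998. In the same library Pcdh11x had 1.25 against 0.395 to 0.493, and Eda 2.37 against 0.660 to 0.832. Gse1 had 0.651 in peak 3 against 1.19 to 1.30, and Cadm1, a synaptic adhesion gene, 0.597 against 0.883 to 0.901. Cadm1 also stood apart in presymptomatic 4, at 0.846 against 0.694 to 0.718. Nav2 had 1.30 in peak 1 against 1.82 to 1.84. Ptprd had 0.961 in naive 3 against 0.751 to 0.793.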

How the results depend on the processing

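The count of very long genes past the adjusted threshold was 0 in all 230 alternatives tried over the 7 comparisons. The median naive density per M was 0.400 with all reads in intervals as denominator and 0.190 with the total reads implied by RPKM, since mitochondrial and uncounted reads enter those. Leaving out 1 naive library gave 0.819 to 0.851. Leaving out 1 library at a time gave member medians of −0.11 to 0.01 presymptomatic, −0.22 to −0.02 at onset and −0.13 to −0.02 at peak. Leaving out naive 3, naive 4 and peak 3, which had the highest receptor shares, gave a presymptomatic median of 0.02, with 67 members then higher and 13 lower at an unadjusted p under 0.05 (4.92% and 2.82% of all tested rows) in place of 0 and 2. X-linked medians, split after the data were seen, ranged from −1.13 to −0.52 at onset and from −0.66 to 0.09 at peak when 1 library was left out. Of 60 fold changes followed, those of smallest p per comparison and the 12 others printed, 2 changed sign in 1 setting each: Mad1l1 presymptomatic, −0.0081 without those 3 libraries, and Csmd2 at onset, 0.022 scaled by nuclear reads. A setting that left out libraries 16 and 17 (presymptomatic 4 and onset 3) was chosen after seeing the data. It gave an onset median of −0.02, the same as leaving out onset 3 alone. The replicate numbers gave no sign of pairing the libraries (median correlation of same-numbered pairs −0.01 over 21 pairs, 2 of 16 libraries best with their own number). The labels leave unsaid if a number marks a shared animal or day, and these correlations cannot settle it. A replicate block gave 0 calls and member medians of −0.06, −0.13 and −0.08. Depth was lowest in peak 4 (1.58 M nuclear reads), and the lowest count of a member in any library was 27 reads.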
